A study of Mus musculus with 16 samples.

Results

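The interferon-stimulated genes described here are 9 genes, Ifit1, Ifit2, Ifit3, Isg15, Usp18, Bst2, Stat2, Irf9 and Irf7, taken by exact gene symbol from the 24421 genes listed in the deposited tables. They were measured in RNA of the somatosensory cortex in 4 groups of 3 mice. Undisturbed wild-type C57BL/6 mice (CTL-WT) were compared with wild-type mice after 8 h of sleep disruption (SD), in which gentle handling kept them awake from zeitgeber time (ZT, hours after light onset) 20 to ZT4 (SD-WT). Mice lacking AcPb, the neuron-specific form of the interleukin-1 receptor accessory protein, were studied in the same way (CTL-AcPbKO and SD-AcPbKO). All mice were collected at ZT4. The labels describe them as male homozygous mice aged 2 to 3 months from colonies bred for 5 to 7 generations, and whether the genotypes were littermates is not given in the sources used here. The labels list 16 samples, and those 4 that the tables do not cover were not analysed here. As a bred homozygous line, the AcPb-/- mice lack AcPb throughout life, and not only during SD.

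Type I interferons bind a receptor of the subunits Ifnar1 and Ifnar2, and the kinases Jak1 and Tyk2 then phosphorylate STAT proteins. Phosphorylated Stat2 joins Irf9 in the complex ISGF3, which binds the interferon-stimulated response element (ISRE) in promoters and raises transcription of many antiviral genes. Stat2, Irf9 and Irf7 are themselves transcribed in response to interferon, Ifit proteins bind viral RNA or translation factors, Isg15 is a ubiquitin-like modifier, Usp18 removes Isg15 from proteins and dampens receptor signaling, and Bst2 (tetherin) holds budding virions at the cell surface. In the healthy brain these genes are transcribed at low basal levels in neurons, glia and vessels.

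Promoter sequence is shown because the ISRE is the element through which ISGF3 acts. The 250 bases before the RefSeq start (GRCm38.p6, sense strand of each gene) were searched on both strands for the ISRE core GAAANNGAA. The core was in 5 of the 8 members with a promoter entry. Counted by promoter, it was in 5 of the 10 of these members and in 7.129% of all 32851 promoters of the same length. The promoters with a core are those of Ifit1 (chr19:34640639-34640888, plus strand), Ifit3 (chr19:34583279-34583528, plus strand), Isg15 (chr4:156200819-156201068, minus strand), Bst2 (chr8:71537473-71537722, minus strand) and Stat2 (chr10:128270248-128270497, plus strand), printed with each core or its reverse complement in capitals.
Ifit1: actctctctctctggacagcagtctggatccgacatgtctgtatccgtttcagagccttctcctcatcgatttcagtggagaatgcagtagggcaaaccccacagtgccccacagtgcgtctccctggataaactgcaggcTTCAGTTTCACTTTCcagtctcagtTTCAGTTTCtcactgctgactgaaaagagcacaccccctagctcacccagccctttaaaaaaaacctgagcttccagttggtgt
Ifit3: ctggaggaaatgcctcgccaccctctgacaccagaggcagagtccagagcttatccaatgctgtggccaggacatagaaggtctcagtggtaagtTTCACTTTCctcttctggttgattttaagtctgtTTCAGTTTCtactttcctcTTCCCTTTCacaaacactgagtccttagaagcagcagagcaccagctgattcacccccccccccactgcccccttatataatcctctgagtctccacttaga
Isg15: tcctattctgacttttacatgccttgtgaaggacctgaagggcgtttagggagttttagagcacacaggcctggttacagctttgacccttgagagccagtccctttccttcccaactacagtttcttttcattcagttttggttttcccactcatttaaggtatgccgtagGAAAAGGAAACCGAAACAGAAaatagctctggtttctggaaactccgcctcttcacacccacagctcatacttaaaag
Bst2: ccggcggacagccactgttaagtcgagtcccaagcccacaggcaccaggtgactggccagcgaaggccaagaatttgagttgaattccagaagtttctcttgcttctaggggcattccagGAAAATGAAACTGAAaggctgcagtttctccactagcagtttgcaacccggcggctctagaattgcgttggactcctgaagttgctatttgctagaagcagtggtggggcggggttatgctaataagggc
Stat2: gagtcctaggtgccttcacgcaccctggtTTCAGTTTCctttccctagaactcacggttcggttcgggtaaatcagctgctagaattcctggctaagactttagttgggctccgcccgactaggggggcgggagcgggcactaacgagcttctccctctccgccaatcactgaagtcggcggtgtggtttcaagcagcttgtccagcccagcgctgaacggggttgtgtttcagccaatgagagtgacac
Ifit1, Ifit3 and Isg15 each held 3 cores within 155 bases of the start, the cores of Isg15 overlapping in 1 run. Bst2 held 2 overlapping cores and Stat2 held 1, whose first base lay 221 bases upstream. No core was found in the windows of Ifit2, Irf7 and Irf9, which says only that these letters are not there, and Usp18 had no entry. The core of the gamma-activated site, TTCNNNGAA, was in the window of Bst2 and in 1 of the 2 windows of Ifit2, against 7.02% of all promoters. The 3 Ifit genes lie near each other on chromosome 19 (GENCODE M21, GRCm38). Ifit2 runs from 34550694 to 34576419, Ifit3 from 34583531 to 34588731 and Ifit1 from 34640871 to 34650009. Of the stretches of 100 bases in Ifit3 exons, 31.7% occur also in the neighbouring copy Ifit3b, so how reads were split between that pair is uncertain. For Ifit1 the share was 3.3%, with Ifit1bl2. Isg15 lies on chromosome 4 (156199424 to 156200818), Usp18 on chromosome 6 (121245906 to 121270917), Irf7 on chromosome 7 (141262706 to 141266481) and Bst2 on chromosome 8 (71534255 to 71537456). Stat2 lies on chromosome 10 (128270559 to 128292849) and Irf9 on chromosome 14 (55603571 to 55610030). Exons of Irf7 overlap those of Phrf1 on the other strand by 45 bases and exons of Usp18 those of Gm44148 by 124 bases, and without the counting strand such reads cannot be told apart.

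Reads counted on genes totalled between 26504840 and 41615582 in the 6 control libraries and between 58770286 and 71857505 in the 6 SD libraries, so depth moved with SD in every library. The members had from 34 reads (Usp18) to 3216 reads (Stat2) in a library. Although the labels call all mice male, 4 of the 6 controls, CTL-WT 02 and 03 and CTL-AcPbKO 04 and 05, had 25352 to 39358 reads of Xist, the noncoding RNA of an inactive X chromosome, and at most 2 reads of Y-linked genes. The other 8 libraries, all SD libraries among them, had at most 13 Xist reads and 5105 to 10593 reads of Y-linked genes. By these reads the 4 controls are female, against their labels, so sex moved partly with SD. The SD result of each member is therefore also given with a term for Xist in a fit of all 12 libraries, and from the 8 libraries without Xist, which leave 1 control per genotype. For the lists of other genes, the number of calls kept with the term for Xist is given. Il1rap, the gene with the AcPb exon, had 1497 ± 21.9 normalized counts in CTL-WT and 1583 ± 66.1 in CTL-AcPbKO (mean ± SD, n = 3). A count over the whole gene does not separate AcPb from the other isoform and so does not check the genotype. SD-AcPbKO 04 stood apart by choroid plexus markers, which summed to 17960 normalized counts there and to 303.7 to 587.1 in the other libraries, and by neutrophil markers, 928.7 against 23.9 to 148.5. The 7 markers of cortical excitatory neurons had reads in all libraries and summed to 76660 to 103300 normalized counts. Neurod6 and Fezf2 rose and Cux2 fell with SD in both genotypes, and Rorb fell in wild-type mice. With the term for Xist, 1 of these 4 wild-type calls and 2 of the 3 AcPb-/- calls were kept. Slc17a7, the vesicular glutamate transporter, did not pass, with 58878 to 68806 in CTL-WT and 50183 to 57769 in SD-WT, and 66359 to 75887 in CTL-AcPbKO and 60146 to 62096 in SD-AcPbKO.

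Levels below are normalized counts, the reads of a gene divided by 1 size factor per library, with the 12 libraries set on a common scale. Per kilobase of transcript, Stat2 had the highest mean level over the 12 libraries (411) and Usp18 the lowest (31.5). Between them came Irf9 (253), Ifit2 (171), Ifit3 (162), Bst2 (131), Isg15 (127), Ifit1 (60.65) and Irf7 (58.1). The ranges over libraries of neighbours in this order overlapped for all pairs except 3, Stat2 with Irf9, Isg15 with Ifit1 and Irf7 with Usp18. All 9 were therefore measurable in undisturbed cortex, whereas the interferon genes themselves were not. Of 21 ligand genes of types I, II and III in the tables, 13 had no read in any library and the others had at most 2 reads in any, Ifnb1 having 1 read in 1 CTL-WT library.

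The first comparison asked whether SD changed these genes in wild-type cortex, and the second whether it did so without AcPb. Groups were compared with limma on log2(normalized count + 1), and a gene was past the threshold, and is said to rise or fall, at a Benjamini-Hochberg adjusted p under 0.05 over all genes tested. In wild-type mice 1 of the 9 members, Irf9, rose and none fell, where 25.4% of all genes tested passed the threshold, 13.2% upward and 12.2% downward. Stat2 rose and Bst2 fell in AcPb-/- mice, so that 2 of 9 passed where 27.4% of all genes did, 14.1% upward and 13.3% downward. The SD and control libraries did not overlap for 1 member in wild-type mice (all genes 40.2%) and for 3 in AcPb-/- mice (all genes 42.4%). The median log2 fold change of the members was 0.07 in wild-type and 0.14 in AcPb-/- mice, against -0.004 and 0.01 over all genes.

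**Figure D1:**
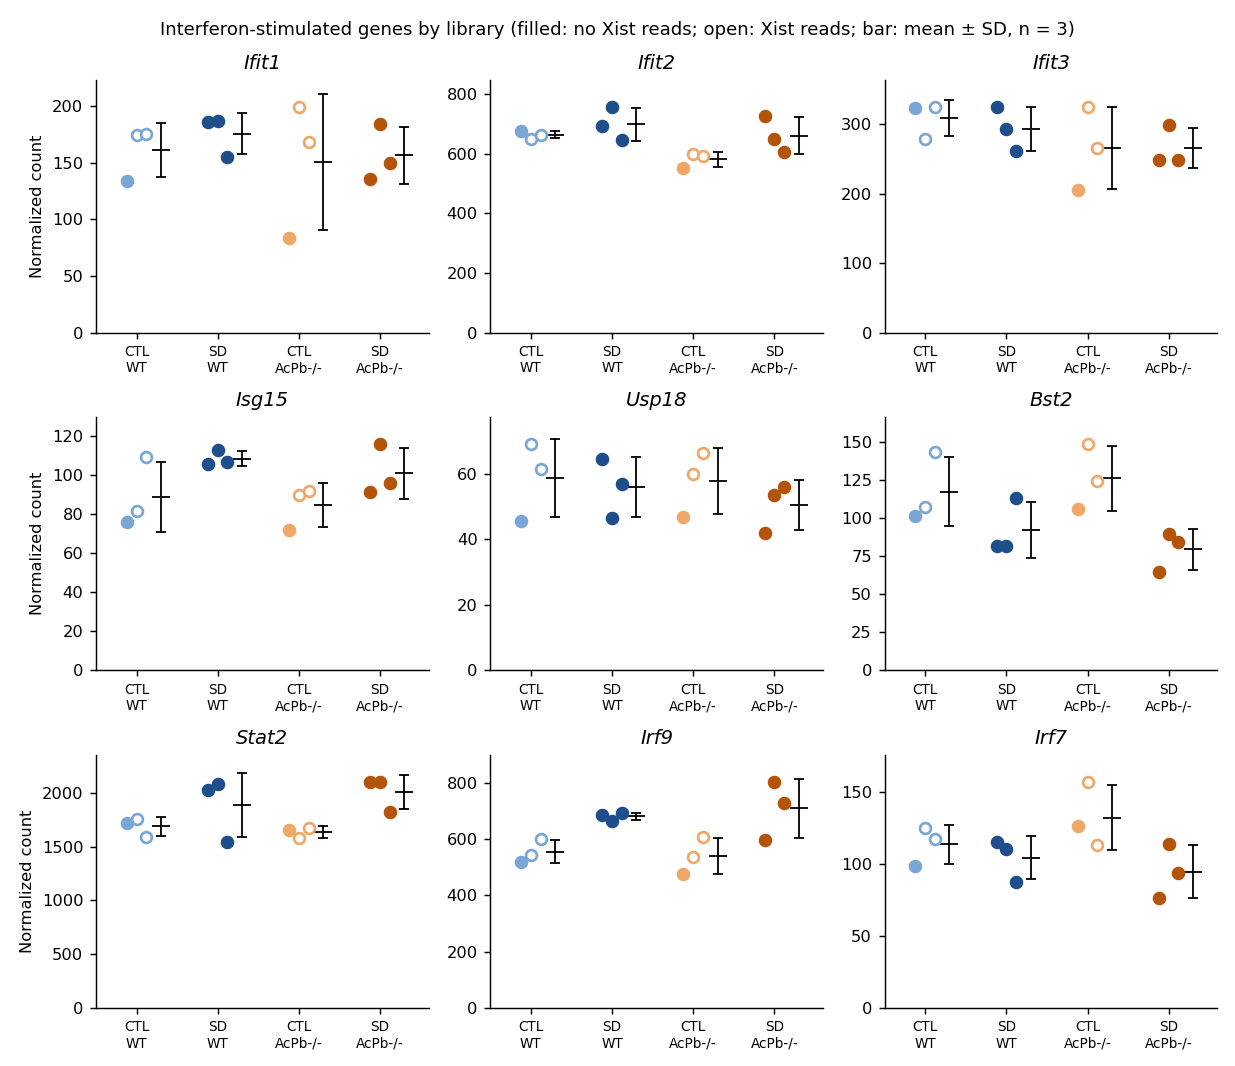
Normalized counts of the 9 genes in each library (y axis, from 0) by group (x axis), with open points for the 4 control libraries with Xist reads and bars for mean ± SD (n = 3). Irf9 lies higher in all 3 SD-WT than in all 3 CTL-WT libraries, and Ifit1 is lowest in the 1 CTL-AcPbKO library without Xist (83.5).

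The Ifit genes encode proteins with tetratricopeptide repeats that bind foreign RNA or the translation factor eIF3. Ifit1 had 134.2, 174.7 and 175.5 normalized counts in CTL-WT 01, 02 and 03, and 186.0, 186.7 and 154.8 in SD-WT 01, 02 and 04. It had 83.5, 199.5 and 168.4 in CTL-AcPbKO 03, 04 and 05 and 135.5, 184.5 and 149.7 in SD-AcPbKO 02, 03 and 04. The groups overlapped in both genotypes, and the widest spread was among the CTL-AcPbKO mice, where the lowest library was the one without Xist. The log2 fold change with SD was 0.13 (SE 0.15, adjusted p = 0.589) in wild-type and 0.14 (SE 0.30, adjusted p = 0.761) in AcPb-/- mice. With the term for Xist it was 0.63 (adjusted p = 0.0562) and 0.64 (adjusted p = 0.0449), and without the libraries with Xist 0.38 (adjusted p = 0.316) and 0.89 (adjusted p = 0.0553). Ifit1 thus passed the threshold in AcPb-/- mice with that term and in neither genotype without it.

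Ifit2 was the most even of the 3 Ifit genes, with 676.0, 650.7 and 663.8 normalized counts in CTL-WT, 693.5, 756.9 and 646.5 in SD-WT, 553.1, 598.6 and 592.8 in CTL-AcPbKO and 727.1, 649.1 and 604.4 in SD-AcPbKO. In AcPb-/- mice every SD library was above every control, with a log2 fold change of 0.18 (95% interval -0.03 to 0.39, adjusted p = 0.180), which did not pass. In wild-type mice it was 0.07 (adjusted p = 0.578). The values were 0.09 (adjusted p = 0.579) in wild-type and 0.20 (adjusted p = 0.180) in AcPb-/- mice with the term for Xist, and without the libraries with Xist 0.05 (adjusted p = 0.870) and 0.25 (adjusted p = 0.264). Ifit3 had 278.9 to 325.2 in CTL-WT and 261.4 to 324.8 in SD-WT, and 206.1 to 324.9 in CTL-AcPbKO and 248.3 to 299.7 in SD-AcPbKO. Its log2 fold changes were -0.08 (adjusted p = 0.682) and 0.02 (adjusted p = 0.934), within the spread of the libraries. They were 0.06 (adjusted p = 0.858) and 0.16 (adjusted p = 0.583) with the term for Xist, and -0.14 (adjusted p = 0.650) and 0.36 (adjusted p = 0.220) without those libraries.

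Isg15 and Usp18 encode a modifier and the protease that reverses its attachment. Isg15 had 75.95, 81.7 and 109.5 normalized counts in CTL-WT and 105.8, 112.9 and 106.6 in SD-WT, and 71.75, 90.05 and 92.0 in CTL-AcPbKO and 91.4, 115.8 and 95.8 in SD-AcPbKO. In each genotype only the highest control reached into the SD range. The log2 fold change was 0.30 (SE 0.17, adjusted p = 0.246) in wild-type and 0.26 (SE 0.18, adjusted p = 0.342) in AcPb-/- mice, and 0.52 (adjusted p = 0.0768) and 0.47 (adjusted p = 0.0920) with the term for Xist. Without the libraries with Xist it was 0.51 (adjusted p = 0.149) and 0.48 (adjusted p = 0.138). Usp18, the least abundant member, had 45.6 to 69.0 in CTL-WT, 46.5 to 64.7 in SD-WT, 47.0 to 66.5 in CTL-AcPbKO and 41.8 to 56.05 in SD-AcPbKO. Its log2 fold changes were -0.06 (95% interval -0.54 to 0.43) and -0.19 (-0.69 to 0.32), and both were above 0 with the term for Xist (0.25 and 0.12) and without those libraries (0.28 and 0.09), none of them past the threshold. The genes for the enzymes that attach Isg15 were also measured. None of Uba7 (the activating enzyme), Ube2l6 (the conjugating enzyme) and Herc6 (the mouse ligase) passed in either genotype, and Uba7 passed in AcPb-/- mice with the term for Xist (-0.53, adjusted p = 0.0345).

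Stat2 and Irf9 supply subunits of ISGF3. Irf9 had 520.3, 545.1 and 602.4 normalized counts in CTL-WT and 685.4, 666.4 and 692.4 in SD-WT, every SD library lying above every control. The log2 fold change was 0.29 (SE 0.08, adjusted p = 0.0264). In AcPb-/- mice Irf9 had 476.2, 538.5 and 607.0 in controls and 597.0, 804.2 and 728.6 after SD, with 1 SD library inside the control range. There the log2 fold change was 0.39 (SE 0.13, adjusted p = 0.0540), on the other side of the threshold, and edgeR and DESeq2 on recovered reads gave adjusted p = 0.0417 and 0.0209. With the term for Xist Irf9 passed in both genotypes, at 0.43 (adjusted p = 0.0309) and 0.52 (adjusted p = 0.00956). In the 8 libraries without Xist it passed in neither, at 0.39 (adjusted p = 0.198) and 0.56 (adjusted p = 0.0784). The wild-type call was lost when any of CTL-WT 01, CTL-WT 02, SD-WT 01 or SD-WT 02 was left out, with adjusted p between 0.0713 and 0.0972. Thinned to equal depth the log2 fold change was 0.31 in wild-type mice (adjusted p = 0.0439) and 0.26 in AcPb-/- mice (adjusted p = 0.278). Irf9 shares 123 exon bases, 2.3% of its exon length, with Rnf31 on the same strand.

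Stat2 had 1723, 1759 and 1590 normalized counts in CTL-WT and 2032, 2085 and 1544 in SD-WT, where SD-WT 04 was below all 3 controls. In CTL-AcPbKO it had 1656, 1579 and 1680 and in SD-AcPbKO 2105, 2104 and 1827, with no overlap. The log2 fold change was 0.15 (SE 0.11, adjusted p = 0.357) in wild-type and 0.30 (SE 0.07, adjusted p = 0.0172) in AcPb-/- mice. Without SD-WT 04 the wild-type value was 0.28 (adjusted p = 0.00847). With the term for Xist the values were 0.12 (adjusted p = 0.543) in wild-type and 0.27 (adjusted p = 0.140) in AcPb-/- mice, and without the libraries with Xist 0.12 (adjusted p = 0.733) and 0.28 (adjusted p = 0.366). The AcPb-/- value also missed the threshold without CTL-AcPbKO 04 (adjusted p = 0.0718) and without SD-AcPbKO 02 (adjusted p = 0.0698). Without SD-AcPbKO 04, the library with choroid plexus markers, it was 0.37 (adjusted p = 0.0144), and at equal depth 0.31 (adjusted p = 0.0310).

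Irf7 encodes the factor that amplifies interferon-alpha transcription. It had 98.7, 125.4 and 117.3 normalized counts in CTL-WT, 115.2, 110.4 and 87.4 in SD-WT, 126.5, 157.1 and 113.2 in CTL-AcPbKO and 76.7, 113.9 and 93.65 in SD-AcPbKO. The SD libraries were in the lower part of the AcPb-/- values, with 1 above the lowest control. The log2 fold change was -0.13 (SE 0.17, adjusted p = 0.627) in wild-type and -0.48 (SE 0.20, adjusted p = 0.111) in AcPb-/- mice. The term for Xist gave -0.004 (adjusted p = 1) and -0.36 (adjusted p = 0.284), and without those libraries 0.07 (adjusted p = 0.911) and -0.43 (adjusted p = 0.332). None of these values passed, and the difference in direction from Irf9 and Stat2 was not tested.

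Bst2 was the member that fell. It had 101.3, 107.0 and 143.0 normalized counts in CTL-WT, 81.55, 81.3 and 113.3 in SD-WT, 105.7, 148.3 and 124.5 in CTL-AcPbKO and 64.3, 89.65 and 84.4 in SD-AcPbKO. The SD and control libraries were apart in AcPb-/- mice and overlapped in wild-type mice through SD-WT 04. The log2 fold change was -0.66 (SE 0.20, adjusted p = 0.0391) in AcPb-/- and -0.35 (SE 0.20, adjusted p = 0.228) in wild-type mice. The AcPb-/- value was -0.45 (adjusted p = 0.191) with the term for Xist and -0.42 (adjusted p = 0.366) without those libraries, and the wild-type value -0.13 (adjusted p = 0.753) and -0.15 (adjusted p = 0.774). The AcPb-/- call was also lost without CTL-AcPbKO 04 or 05 or without SD-AcPbKO 02 or 04, with adjusted p between 0.0766 (without SD-AcPbKO 04) and 0.133. At equal depth the AcPb-/- value was -0.74 (adjusted p = 0.0360).

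Microglial markers moved in the same comparison as Bst2. Of 10 microglial markers, 4 fell in AcPb-/- mice, Csf1r, Cx3cr1 and Fcrls among them, where 13.3% of all genes fell. The sum of the 10 was 18550 to 19430 normalized counts in controls and 13780 to 16630 after SD. In wild-type mice 2 of the 10, Aif1 and Fcrls, fell, where 12.2% of all genes did. The sum there was 19030 to 20160 in controls and 17530 to 18880 after SD. All 4 AcPb-/- calls and neither wild-type call were kept with the term for Xist, and without the libraries with Xist 1 and 0. None of the microglial markers was at 0. Of 7 endothelial markers, Flt1, Ly6c1 and Pecam1 rose and Cldn5 fell in both genotypes. In each genotype 2 of these 4 calls were kept with the term for Xist. Of 6 oligodendrocyte markers, 4 fell in wild-type and 1 in AcPb-/- mice, all kept with that term. Of 6 markers of border-associated macrophages none fell. Cd163 and F13a1 rose in wild-type and F13a1 in AcPb-/- mice, all kept with that term. Of 6 astrocyte markers, 2 fell in wild-type and 1 in AcPb-/- mice, with 1 kept in each. Of 6 meningeal fibroblast markers, 3 fell in wild-type and 1 in AcPb-/- mice, with 0 kept. The part of these markers in the values of the members was not tested. In bulk tissue, fewer cells of a type and less RNA per cell cannot be told apart. Of 6 markers of T and NK cells none passed, Cd4 had 38.8 to 182.3 normalized counts and the other 5 (Cd3e, Cd3g, Cd8a, Ncr1 and Nkg7) 0 to 6.7. In the red blood cell list the 4 globin genes are listed at 0 in all libraries, while Alas2, the erythroid enzyme of heme synthesis, had 143.0 to 426.6, so the globin values give no measure of blood.

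**Figure D2:**
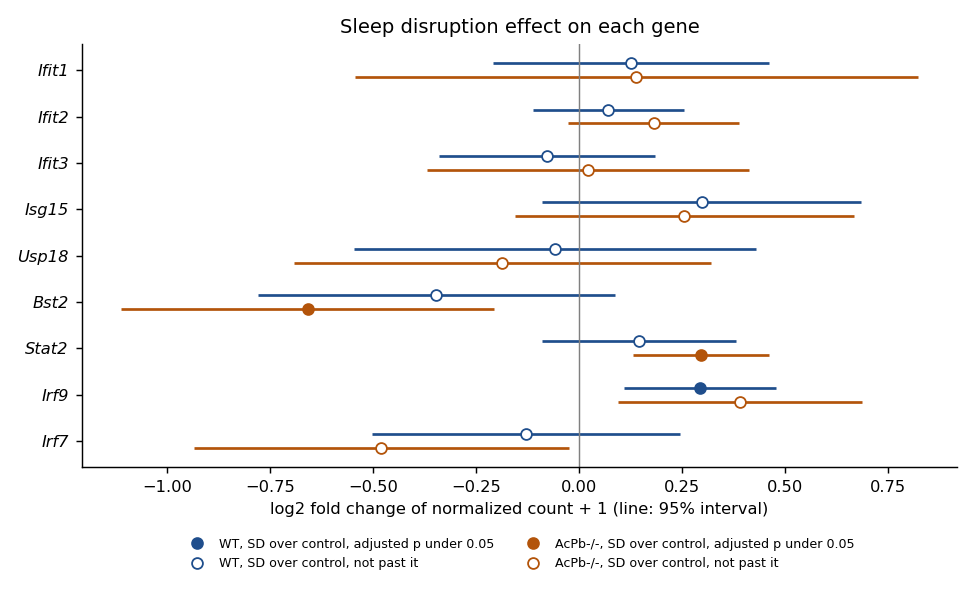
Log2 fold change with SD (x axis) of each gene (y axis) in wild-type (blue) and AcPb-/- (orange) mice, with 95% intervals and filled points for an adjusted p under 0.05. Irf9 in wild-type mice and Stat2 and Bst2 in AcPb-/- mice are the 3 filled points, and both intervals span 0 for Ifit1, Ifit2, Ifit3, Isg15 and Usp18.

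Because the Xist libraries were all controls, SD values moved with how they were treated. Of the 9 members, 5 (Ifit1, Isg15, Usp18, Irf9 and Bst2) had their lowest control value, in both genotypes, in the 1 control without Xist, where 17.0% of all genes did. SD log2 fold changes were higher with the term for Xist than without it for 8 of the 9 members, all but Stat2. That term is estimated from the controls alone, so this count repeats the difference among controls and is not a second observation. Its share over all genes is not given here. The term is shared by the genotypes, which had equally many Xist controls, so the same shift in both was built into the fit. Whether the levels of the members in these controls differ by sex, another trait of the mouse, the dissection or the library cannot be told apart.

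**Figure D3:**
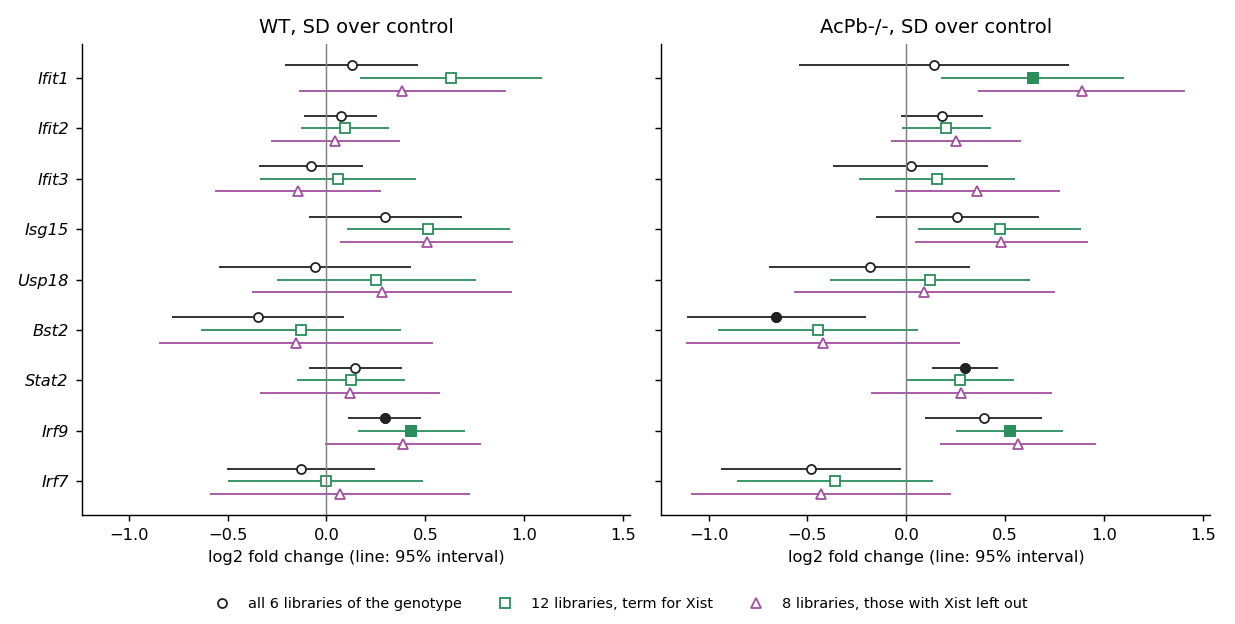
Log2 fold change with SD (x axis, 95% interval) of each gene (y axis) in wild-type (left) and AcPb-/- mice (right), from the 6 libraries of the genotype (circles), from 12 libraries with a term for Xist (squares) and from the 8 libraries without Xist (triangles). Filled symbols have an adjusted p under 0.05, and Ifit1 moves from 0.14 to 0.64 and 0.89 in AcPb-/- mice.

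The other genes of the pathway were taken from 7 lists with 121 genes. In wild-type mice 18 of the 106 tested passed (12 rose, 6 fell, 17.0% where all genes had 25.4%). Of 105 tested in AcPb-/- mice, 14 passed (9 rose, 5 fell, 13.3% against 27.4%). Of these, 8 genes passed in both genotypes, all in the same direction, which is 44.4% of the wild-type and 57.1% of the AcPb-/- genes. Over all genes, 3871 passed in both, 74.6% of the wild-type and 68.7% of the AcPb-/- calls, 3870 of them in the same direction. With each single library left out in turn, 6 of the 18 (Jak2, Irf2, Ifi27, Slfn2, Pnpt1 and Ddx60) and 5 of the 14 (Jak2, Irf2, Slfn2, Pnpt1 and Ptpn2) always passed, and the other 12 and 9 did not.

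Of 11 genes for interferon receptors, kinases and STATs, 1 passed in each genotype. In both it was Jak2, a kinase of the interferon-gamma receptor. Jak2 had 2514, 2327 and 2553 normalized counts in CTL-WT and 3880, 3839 and 3591 in SD-WT, and 2344, 2174 and 2342 in CTL-AcPbKO and 4173, 3426 and 3739 in SD-AcPbKO. All SD libraries were above all controls, with log2 fold changes of 0.61 (adjusted p = 0.000293) and 0.72 (adjusted p = 0.000893). The receptor gene Ifnar1 had 2739 to 2827 normalized counts in CTL-WT and 2894 to 3017 in SD-WT, and did not pass. Of 6 other interferon regulatory factors, Irf2, which competes with Irf1 for the same DNA element, passed in each genotype. Irf2 had 1352, 1280 and 1391 in CTL-WT and 2450, 2442 and 1939 in SD-WT, and 1302, 1315 and 1524 in CTL-AcPbKO and 2395, 2166 and 2113 in SD-AcPbKO. Its log2 fold changes were 0.75 (adjusted p = 0.000700) and 0.69 (adjusted p = 0.00107). Jak2 and Irf2 passed without each single library in turn and with the term for Xist. In the 8 libraries without Xist they passed in AcPb-/- mice (adjusted p = 0.0270 and 0.0371) and not in wild-type mice (adjusted p = 0.0542 and 0.0602).

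Of 15 nucleic acid sensors and adaptors, Tlr7 (log2 fold change 0.46, adjusted p = 0.0240) and Ticam1 (0.38, adjusted p = 0.0346) rose in wild-type mice. In AcPb-/- mice Irf3, the factor that first switches on interferon-beta, rose (0.38, adjusted p = 0.0115), and Tmem173, which encodes STING (-0.59, adjusted p = 0.0140), and the DNA sensor Tlr9 (-0.62, adjusted p = 0.0275) fell. Neither wild-type gene passed with the term for Xist and all 3 AcPb-/- genes did, and without the libraries with Xist only Tlr9 in AcPb-/- mice passed among these 5. Of 9 negative regulators, a tyrosine phosphatase rose in each genotype, Ptpn1 in wild-type (0.24, adjusted p = 0.0284) and Ptpn2 in AcPb-/- mice (0.32, adjusted p = 0.00801), and both passed in their genotype with the term for Xist and without those libraries.

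Among 56 other interferon-stimulated genes, 7 rose and 6 fell in wild-type mice, where 13.2% of all genes rose and 12.2% fell. In AcPb-/- mice 5 rose and 3 fell, where 14.1% of all genes rose and 13.3% fell. Slfn2, a growth regulator of immune cells, had 121.5, 66.2 and 117.3 normalized counts in CTL-WT and 246.7, 238.2 and 195.5 in SD-WT, and 83.5, 84.75 and 92.0 in CTL-AcPbKO and 172.7, 207.4 and 181.6 in SD-AcPbKO. Its log2 fold changes were 1.19 (adjusted p = 0.00426) and 1.10 (adjusted p = 0.00139). Ifit1bl2, a relative of Ifit1 that shares exon sequence with it, rose by 0.76 (adjusted p = 0.0181) and 0.96 (adjusted p = 0.0206), where Ifit1 itself did not pass. Pnpt1, a mitochondrial RNA exonuclease, rose by 0.34 (adjusted p = 0.00806) and 0.49 (adjusted p = 0.00161), and Slfn5 by 0.30 (adjusted p = 0.0343) and 0.42 (adjusted p = 0.0471). The genes that fell in both were Tap1, which carries peptides to major histocompatibility complex class I (-0.55, adjusted p = 0.0207, and -0.74, adjusted p = 0.0375), and Ifitm3, which blocks virus entry (-0.47, adjusted p = 0.0425, and -0.59, adjusted p = 0.0380).

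In wild-type mice alone Oas2 (0.73, adjusted p = 0.0336), Sp100 and Ifitm2 also passed upward, and Ifi27l2a (-1.01, adjusted p = 0.0177), Ddx60 (-0.81, adjusted p = 0.0124), Ifi27 (-0.51, adjusted p = 0.00214) and Igtp downward. In AcPb-/- mice alone Samd9l (0.43, adjusted p = 0.0213) passed upward and Psmb9, a subunit of the immunoproteasome (-0.99, adjusted p = 0.0303), downward. The interaction of genotype and SD called none of them. With the term for Xist, 7 of the 13 wild-type and 7 of the 8 AcPb-/- calls in this list were kept. From the 8 libraries without Xist, 0 of the 56 passed in wild-type mice, with 11 at an unadjusted p under 0.05, and 3 in AcPb-/- mice. Of all 20768 genes, 680 (3.27%) and 2080 passed in that fit, with 25.9% at an unadjusted p under 0.05 in wild-type mice.

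**Figure D4:**
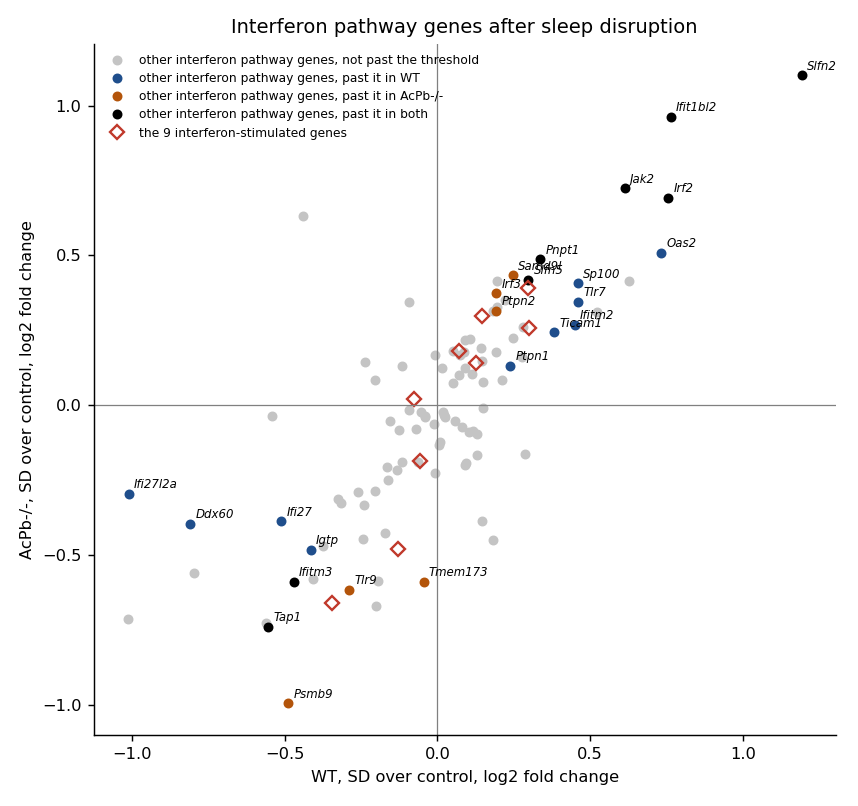
Log2 fold change with SD in wild-type mice (x axis) and in AcPb-/- mice (y axis) for 100 other genes of the interferon pathway with more than 3 reads in a library (circles, coloured by where they passed the threshold) and for the 9 interferon-stimulated genes (diamonds). Slfn2, Ifit1bl2, Jak2 and Irf2 lie farthest to the upper right, and the 9 genes lie nearer to 0 than these.

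The third comparison asked whether the genotypes differed in undisturbed mice, and the fourth whether they did after SD. No member passed in either, where 0.0197% and 0.0145% of all genes did, and edgeR and DESeq2 called no member either. At an unadjusted p under 0.05 there was 1 member in controls, Ifit2, and 0 after SD, where 8.53% and 6.13% of all genes were. Ifit2 was lower in all CTL-AcPbKO than in all CTL-WT libraries, with a log2 fold change of -0.19 (95% interval -0.36 to -0.03, adjusted p = 0.522). It was the 1 member without overlap (all genes 14.3%), and after SD there was none (all genes 11.3%). The members ranged from -0.24 (Ifit3, 95% interval -0.60 to 0.12) to 0.21 (Irf7, -0.19 to 0.60) in controls and from -0.21 (Bst2, -0.65 to 0.24) to 0.10 (Stat2, -0.15 to 0.36) after SD. No gene of the 7 lists passed in either comparison, with 5 of 106 in controls and 7 of 105 after SD at an unadjusted p under 0.05, near or below those shares of all genes.

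Whether the SD effect differed between the genotypes was tested as an interaction over the 12 libraries. No member passed, where 0.0% of 20978 genes did, no member had an unadjusted p under 0.05, and edgeR and DESeq2 called no member. Over all genes 839 had an unadjusted p under 0.05. The members' differences of log2 fold change, AcPb-/- minus wild-type, ranged from -0.36 (Irf7, 95% interval -0.93 to 0.22) to 0.15 (Stat2, -0.16 to 0.46). The calls of Irf9 in wild-type mice and of Stat2 and Bst2 in AcPb-/- mice are thus not shown to be particular to a genotype.

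Genes whose levels over the 12 libraries followed the members most closely were listed by correlation with the mean standardized level of the 9, restricted to genes whose mean normalized count reached 10. The mean itself, of which each member is a part, followed Ifit1 (r = 0.95), Ifit3 (r = 0.79) and Isg15 (r = 0.78). It followed little of Stat2 (r = 0.25) or Bst2 (r = 0.14). The mean was -1.19 in CTL-AcPbKO 03 and -0.52 to 0.59 in the other libraries, so that library weighs heavily in these correlations. The 10 most alike genes were 9330188P03Rik (r = 0.93), Iigp1 (0.90), Oasl2 (0.86), Oas1a (0.85), Gch1 (0.85), Il1rl1 (0.85), Igfbp7 (0.84), Parp14 (0.84), Tor1a (0.83) and Supt4a (0.82). Of these Iigp1, Oasl2, Oas1a and Parp14 were in the list of interferon-stimulated genes. Iigp1, an interferon-inducible GTPase, had 65.2 normalized counts in CTL-AcPbKO 03, which also had the lowest Ifit1, and 69.7 to 134.8 in the other libraries. The libraries share their normalization, and the values are a description. In the 8 libraries without Xist, 2 of the 10 were still among the 10 most alike.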

How the data were processed

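RNA of the somatosensory cortex was measured by RNA-seq. The authors aligned reads to mm10 with HISAT2 (2.2.1 per the labels), counted them per gene (HTSeq in the methods, featureCounts in the labels; annotation and counting strand not given in the sources used here) and normalized them in DESeq2 (1.31.16). The deposited values are signal, reads divided by a size factor; the authors' own fold change and p columns were not used. Whole reads were recovered for 100.0% of 732630 values (tolerance 0.01).

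The plan named edgeR for counts; as values were normalized, limma (3.58.1, R 4.3.3, trend) was applied to log2(normalized count + 1), which understates changes of low genes, for each pair of groups leaving out genes without a read. P-values are Benjamini-Hochberg adjusted over all genes (threshold 0.05). The interaction used 12 libraries normalized together. Mice were not paired, and the spread is that between 3 libraries per group. Members were all named; pathway genes were named if past the threshold, lowest adjusted p first; the 10 most alike genes by Pearson correlation. Members and lists were chosen with earlier results of these data known. On simulated counts with 200 changed genes, limma recovered 22 changed 1.5-fold and 85 changed 2-fold in the wild-type design, and 0 and 38 in the interaction. Those counts had the same spread setting for every gene, fewer changed genes than SD called here and no Xist difference. They do not give the power of the comparisons made here. On recovered reads, edgeR called 5368 genes with SD in wild-type and 5682 in AcPb-/- mice. Alternatives were a mean of at least 10, a pseudocount of 10, edgeR (4.0.16), DESeq2 (1.42.0), 4 groups in 1 fit, a term for Xist, the 8 libraries without Xist, thinning to the smallest total (seed 1), a replicate block and the omission of each library. The pathway lists under these alternatives, and the comparison of controls by Xist, were added after the data were seen. Some genes of the lists are counted and not reported by themselves here. Transcript lengths and positions are from GENCODE M21, promoters from RefSeq.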

Additional observations from a re-analysis of the deposited data

How the results depend on the processing

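The number of members past the threshold in wild-type mice (1) was 0 with the 4 groups in 1 fit, 0 without the libraries with Xist and 0 to 2 with each library left out. In AcPb-/- mice (2) it was 3 with a mean of at least 10, edgeR, DESeq2 and the 4 groups in 1 fit, 0 without the libraries with Xist and 0 to 2 with each library left out. The replicate numbers are shared by at most 2 libraries per comparison, whose deviations correlated between -0.427 and 0.231, so the mice were not treated as paired. With the replicate block 0 members passed in either SD comparison, and 0 of all genes did. In that fit 6889 genes in wild-type and 4662 in AcPb-/- mice had an unadjusted p under 0.05. Libraries whose number is not shared add nothing to its group difference, and almost none are left to estimate the spread. Its 0 therefore says little about the members. Counts for genotype and for the interaction were 0 under all alternatives run. Among the values given here, signs turned only for those below the threshold. With the replicate block, log2 fold changes in wild-type mice were 0.0203 (Irf7) and 0.0428 (Ifit3), and 0.0473 in AcPb-/- mice (Usp18). With the term for Xist they were 0.0601 (Ifit3) and 0.25 (Usp18) in wild-type and 0.12 (Usp18) in AcPb-/- mice. Without the libraries with Xist they were 0.0686 (Irf7) and 0.28 (Usp18), and 0.0916 (Usp18) in AcPb-/- mice. Thinned to the smallest total, Ifit3 was -0.00025 in AcPb-/- mice. The cause of these turns was not tested. With each library left out, ranges in wild-type mice were -0.15 to 0.0031 for Ifit3 and -0.23 to 0.0677 for Usp18, and in AcPb-/- mice -0.24 to 0.39 for Ifit1 and -0.15 to 0.18 for Ifit3. SD-AcPbKO over SD-WT was -0.0354 to 0.18 for Stat2. Of 135 alternative log2 fold changes of the 9 members per genotype, 118 in wild-type and 108 in AcPb-/- mice kept their direction and their side of the threshold. The fewest reads lay behind Usp18, 34 to 96 per library.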
